A study of Mus musculus with 6 samples.

Results

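Endosomal Toll-like receptors and the proteins that place and couple them were examined in peritoneal macrophages (PMs) of lupus-prone and control mice. The 9 genes were listed by name: the nucleic acid receptors Tlr3, Tlr7, Tlr8, Tlr9 and Tlr13, the chaperone Unc93b1, the adaptor Myd88, the kinase Irak4 and the transcription factor Irf5. They are 9 of the 32875 genes with a count record. The list was set by name and not by a measured threshold, but it was chosen with earlier results of these data known. RNA was sequenced from 3 control and 3 diseased-BWF1 mice, with 1 library per mouse. All 6 mice were females. Control mice were F1 offspring of New Zealand white and BALB/c parents and served the authors as non-autoimmune controls. Their ages were 33, 33 and 30 weeks. Diseased-BWF1 mice were F1 offspring of New Zealand black and New Zealand white parents, a spontaneous model of systemic lupus, and were 31, 31 and 34 weeks old. They had high anti-dsDNA titres and severe proteinuria. PMs were sorted with F4/80 and CD11b among the markers and were not stimulated before RNA extraction. The groups share the New Zealand white parent and differ in the other parent, so strain and disease cannot be told apart.

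Endosomal Toll-like receptors read nucleic acids that reach the endolysosome. Unc93b1 carries them there from the endoplasmic reticulum, proteases of the compartment cut their ectodomains, and nucleases shape the RNA and DNA they can bind. Tlr7, Tlr8, Tlr9 and Tlr13 signal through Myd88 and Irak4 to NF-kB and Irf5, whereas Tlr3 signals through Ticam1. An extra copy of Tlr7 can promote lupus-like disease in mice, and mice without Tlr8 have been described with lupus-like autoimmunity.

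Total counts ranged from 3629901 to 5003360 per mouse, of which 89.1% to 93.0% fell on genes. A count of 3, used here as the smallest detectable level, stood for 0.652 to 0.889 CPM (counts scaled to a common total on genes), a limit that covers counting error only. Correlations of log2 CPM were 0.928 to 0.961 between control libraries and 0.944 to 0.951 between diseased-BWF1 libraries, and no pair was a duplicate. Between the groups they were 0.899 to 0.939. Control replicate 3 had 0.931 and 0.928 with control replicates 1 and 2, values within the between-group range. Control replicates 1 and 2 had 0.961 with each other. A gene was called when edgeR's quasi-likelihood test gave an adjusted p under 0.05 (Benjamini-Hochberg over the 10502 genes tested) with a fold change of at least 1.5. The macrophage markers Adgre1, Itgam, Csf1r, Mertk, Gata6, Timd4, Icam2 and Cd68 were all tested, 0 of 8 was called by edgeR (DESeq2 called 1, Cd68). Timd4, Icam2 and Cd68, with log2 differences of -0.53, -0.55 and -1.10, had an unadjusted edgeR p under 0.05, against 13.2% of all tested genes. These 3 and Adgre1 (-0.17) were lower in diseased-BWF1 mice without overlap, as were 11.2% of all tested genes. The summed level of the 8, most of it from Itgam, was 1.05e+04 to 1.24e+04 CPM in control and 1.13e+04 to 1.21e+04 CPM in diseased-BWF1 mice.

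Tlr8 was the member that fell, and Tlr7, its neighbour on the X chromosome, had a fold change of the same size but did not pass the test. Of the 9 genes, 8 had enough counts to be tested and Tlr9 did not. One of the 8 was called lower in diseased-BWF1 mice (12.5%), against 0.819% of all tested genes called lower, and 0 of the 8 was called higher, against 0.4% of all tested genes. The other 7 tested members were not called, and the unadjusted edgeR p was under 0.05 for Tlr8 and Tlr7 alone (2 of 8, against 13.2% of all tested genes). Over the 8 members the log2 difference had a median of -0.15, and over all tested genes 0.01. The control mice lay above the diseased-BWF1 mice without overlap for 2 of the 8, Tlr7 and Tlr8, while 11.2% of all tested genes showed this.

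**Figure D1:**
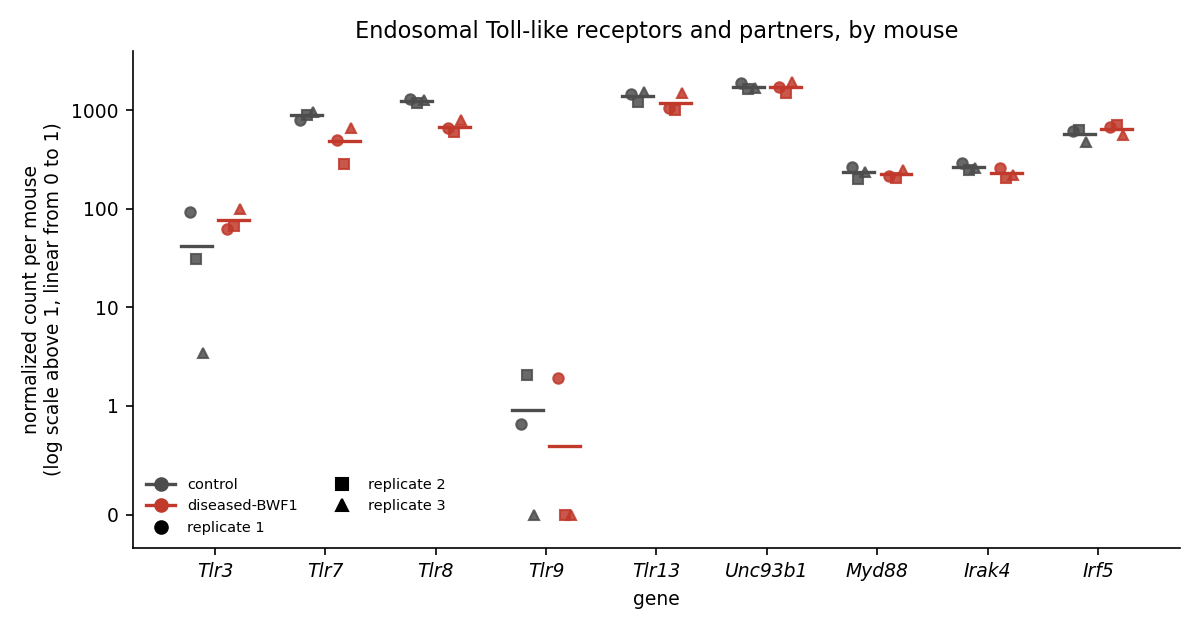
Normalized counts of the 9 members in each mouse, on an axis that is linear from 0 to 1 and logarithmic above. Each point is a mouse and each horizontal line a group mean; for Tlr7 and Tlr8 the control points all lie above the diseased-BWF1 points, and for Tlr9 no point exceeds 2.06.

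The sequences upstream of the receptors' start sites are shown for the called receptor, Tlr8, for Tlr13, the other well expressed receptor with an entry in the promoter table, and for Tlr9, the receptor with almost no counts. Of the 9 members, 7 had an entry, and Tlr7 and Unc93b1 did not. Each line gives the 250 bases before the start site (RefSeq, GRCm38.p6), written 5′ to 3′ along the strand of the gene, and capitals mark a match to GAGGAAG, the core bound by PU.1-type ETS factors. The Tlr8 bases are chrX:167264330-167264579 on the minus strand, those of Tlr13 chrX:106143025-106143274 on the plus strand, and those of Tlr9 chr9:106222348-106222597 on the plus strand.
Tlr8: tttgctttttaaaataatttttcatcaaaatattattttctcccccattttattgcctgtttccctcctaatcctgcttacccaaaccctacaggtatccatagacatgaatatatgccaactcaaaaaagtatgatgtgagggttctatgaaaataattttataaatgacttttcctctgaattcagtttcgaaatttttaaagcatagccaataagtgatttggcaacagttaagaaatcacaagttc
Tlr13: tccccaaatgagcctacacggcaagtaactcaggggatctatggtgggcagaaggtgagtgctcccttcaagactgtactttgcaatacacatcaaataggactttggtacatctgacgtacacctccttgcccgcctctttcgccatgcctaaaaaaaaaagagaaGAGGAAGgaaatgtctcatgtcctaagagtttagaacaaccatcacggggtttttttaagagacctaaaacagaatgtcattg
Tlr9: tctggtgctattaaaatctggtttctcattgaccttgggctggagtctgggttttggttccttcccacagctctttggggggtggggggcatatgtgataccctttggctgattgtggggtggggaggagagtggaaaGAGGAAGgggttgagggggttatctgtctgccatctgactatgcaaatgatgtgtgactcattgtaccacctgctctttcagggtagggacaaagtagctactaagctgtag

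The ETS core was searched on both strands, and matched Tlr13 at base -83 and Tlr9 at base -112, with 10.6% of 32851 promoters of the same length holding it. The interferon regulatory factor core AANNGAAA, searched in the same way and present in 21.3% of promoters, was in none of these 3 windows. Among the other members it matched Myd88 at base -38 and, on the opposite strand, Tlr3 at base -59. The Irak4 and Irf5 windows held neither motif. The Tlr8 window had 31.2% G and C bases, below the 5th percentile of all promoters (34.8%, with a median of 52.4%), and those of Tlr13 and Tlr9 had 44.4% and 50.4%. These matches describe letters in a window and do not show binding.

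Tlr8, a receptor of RNA degradation products, lies on the X chromosome at chrX:167241123-167264329 (GRCm38.p6, minus strand). Its normalized counts, which are counts divided by DESeq2's size factors, were 1285, 1168 and 1274 in control animals. Diseased-BWF1 animals had 650.6, 594.5 and 793.7. The lowest control mouse was well above the highest diseased-BWF1 mouse. The means were 1242 ± 64.7 in control and 679.6 ± 102.7 in diseased-BWF1 mice (SD, n = 3 each), a 1.83-fold lower level. On the log2 scale the edgeR difference was -0.87 with a standard error (SE) of 0.15 and a 95% interval of -1.22 to -0.53 (adjusted p = 0.045). DESeq2 gave the same difference with an adjusted p of 3.02e-05, and Tlr8 was the 1 member it called, where it called 1.95% of its 12405 genes lower. The edgeR call was close to its threshold: it was lost when any of the 6 mice was left out, with differences of -1.0 to -0.78 and adjusted p values of 0.0695 to 0.168. It was made in 9 of 20 fits, and the log2 difference stayed between -1.0 and -0.78 in all 20.

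Tlr7, the receptor of single-stranded RNA, lies at chrX:167303380-167330574 on the same strand, and 39050 bases separate its end from the start of Tlr8. The control mice had 796.8, 898.1 and 960.0 normalized counts. The diseased-BWF1 mice had 501.4, 286.6 and 654.5. The groups did not overlap, although the diseased-BWF1 mice were spread widely, with replicate 2 lowest. The means were 885.0 ± 82.4 and 480.8 ± 184.8 (SD, n = 3 each). The log2 difference was -0.88 (SE 0.28, 95% interval -1.54 to -0.23), a 1.84-fold lower mean level that did not pass the edgeR test (adjusted p = 0.229) or DESeq2 (adjusted p = 0.0704). It passed in 1 of 20 fits, DESeq2 on curated records alone, with a log2 difference of -0.92 and an adjusted p of 0.0455. Without diseased-BWF1 replicate 2 the log2 difference was -0.61, and without diseased-BWF1 replicate 3 it was -1.16. In bulk RNA, fewer cells of a type and less RNA per cell cannot be told apart for any of these genes.

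Tlr13, the receptor of bacterial large-subunit ribosomal RNA, is also X-linked, at chrX:106143275-106160493 on the plus strand. It had 1449, 1217 and 1518 normalized counts in control mice and 1046, 1010 and 1474 in diseased-BWF1 mice. Diseased-BWF1 replicate 3 lay within the control range, so the groups overlapped. The log2 difference was -0.25 (SE 0.18, 95% interval -0.68 to 0.18, edgeR adjusted p = 0.625).

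Tlr3, the receptor of double-stranded RNA (chr8:45395665-45411075, minus strand), was low and variable. The control mice had 111, 30 and 3 raw counts and the diseased-BWF1 mice had 66, 66 and 98. Normalized, these were 91.84, 30.86 and 3.445 against 62.32, 66.84 and 98.83. The control mice were spread around the diseased-BWF1 mice, with control replicate 1 above diseased-BWF1 replicates 1 and 2, and control replicate 3 at the detection limit. The log2 difference of 0.81 had an SE of 0.76 and an interval from -0.97 to 2.59 (edgeR adjusted p = 0.709), so the difference was within the spread between mice. It was 0.29 without control replicate 3 and 2.10 without control replicate 1.

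Tlr9, the receptor of unmethylated CpG DNA (chr9:106222598-106226876, plus strand), had 1, 2 and 0 counts in control mice and 2, 0 and 0 in diseased-BWF1 mice. These are 3 of 11787755 gene counts in the control group and 2 of 11415309 in the diseased-BWF1 group. Each mouse was below the limit of 3 counts, and a difference in Tlr9 was not detectable at this depth.

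The partner proteins showed smaller differences than Tlr8. Unc93b1, which delivers the receptors to endosomes (chr19:3935158-3949340, plus strand), had 1862, 1625 and 1665 normalized counts in control mice and 1729, 1502 and 1934 in diseased-BWF1 mice. The ranges lay on top of each other. Its log2 difference was 0.00 (SE 0.14, 95% interval -0.34 to 0.34, edgeR adjusted p = 1), and its sign changed with the processing.

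Myd88, the adaptor that receptors other than Tlr3 recruit (chr9:119335934-119340018, minus strand), had 264.0, 199.6 and 236.6 normalized counts in control mice and 213.4, 205.6 and 246.1 in diseased-BWF1 mice. The groups overlapped, with a log2 difference of -0.08 (SE 0.15, 95% interval -0.42 to 0.26, edgeR adjusted p = 0.862), which was 0.01 without control replicate 1. Irak4, the kinase that opens the Myd88 signalling complex (chr15:94543613-94568317, plus strand), had 292.1, 246.9 and 256.1 normalized counts in control mice and 256.8, 204.6 and 220.9 in diseased-BWF1 mice. Here too a diseased-BWF1 mouse exceeded a control mouse, and the log2 difference was -0.22 (SE 0.14, 95% interval -0.55 to 0.10, edgeR adjusted p = 0.547).

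Irf5, a transcription factor activated downstream of Myd88 (chr6:29526130-29541869, plus strand), had 618.9, 622.4 and 473.1 normalized counts in control mice. The diseased-BWF1 mice had 678.9, 702.8 and 553.7. Diseased-BWF1 replicate 3 fell below control replicates 1 and 2, so the groups overlapped. The log2 difference was 0.17 (SE 0.16, 95% interval -0.21 to 0.56, edgeR adjusted p = 0.711). The intervals of Unc93b1, Myd88, Irak4 and Irf5 all ended before a 1.5-fold change in either direction.

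In the annotation Tlr3 overlaps Gm45542, Myd88 overlaps Slc22a14 and Acaa1a, Irak4 overlaps Twf1, and Irf5 overlaps Tnpo3. The libraries were stranded, but the use of strand in counting is not given in the sources used here, so reads in these overlaps may be shared. Of the 75-base windows in the members' transcripts of the GENCODE annotation, 0% also occurred in another gene. The RefSeq records that were counted were not themselves searched.

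Levels of different genes were compared per kilobase of transcript and on the CPM scale. Unc93b1 was highest in both groups, at 196 ± 17.2 in control and 202 ± 26.3 in diseased-BWF1 mice (SD, n = 3). In control mice Tlr8 (93.6 ± 5.99) and Tlr13 (88.9 ± 10.8) came next and overlapped each other. Irf5 (67.5 ± 10.2) and Tlr7 (60.6 ± 5.09) followed and also overlapped, and both lay below every Tlr13 value. In diseased-BWF1 mice Irf5 (78.4 ± 10) and Tlr13 (77.1 ± 16.6) came next after Unc93b1 and overlapped. Tlr8 (52.7 ± 7.92) was at rank 4 of the 9 genes, against rank 2 in control mice, and lay below every Tlr13 value. Tlr7 (33.9 ± 13.1) was at rank 5 in both groups, and its range reached into those of Tlr8 above it and Myd88 (30.1 ± 2.88) below it. Tlr3, at 2.49 ± 2.7 in control and 4.58 ± 1.17 in diseased-BWF1 mice, and Tlr9, at 0.0712 and 0.0492, were lowest. The RNA receptors Tlr8, Tlr13 and Tlr7 were therefore the endosomal receptors with the highest transcript levels in these sorted PMs, in both groups.

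**Figure D2:**
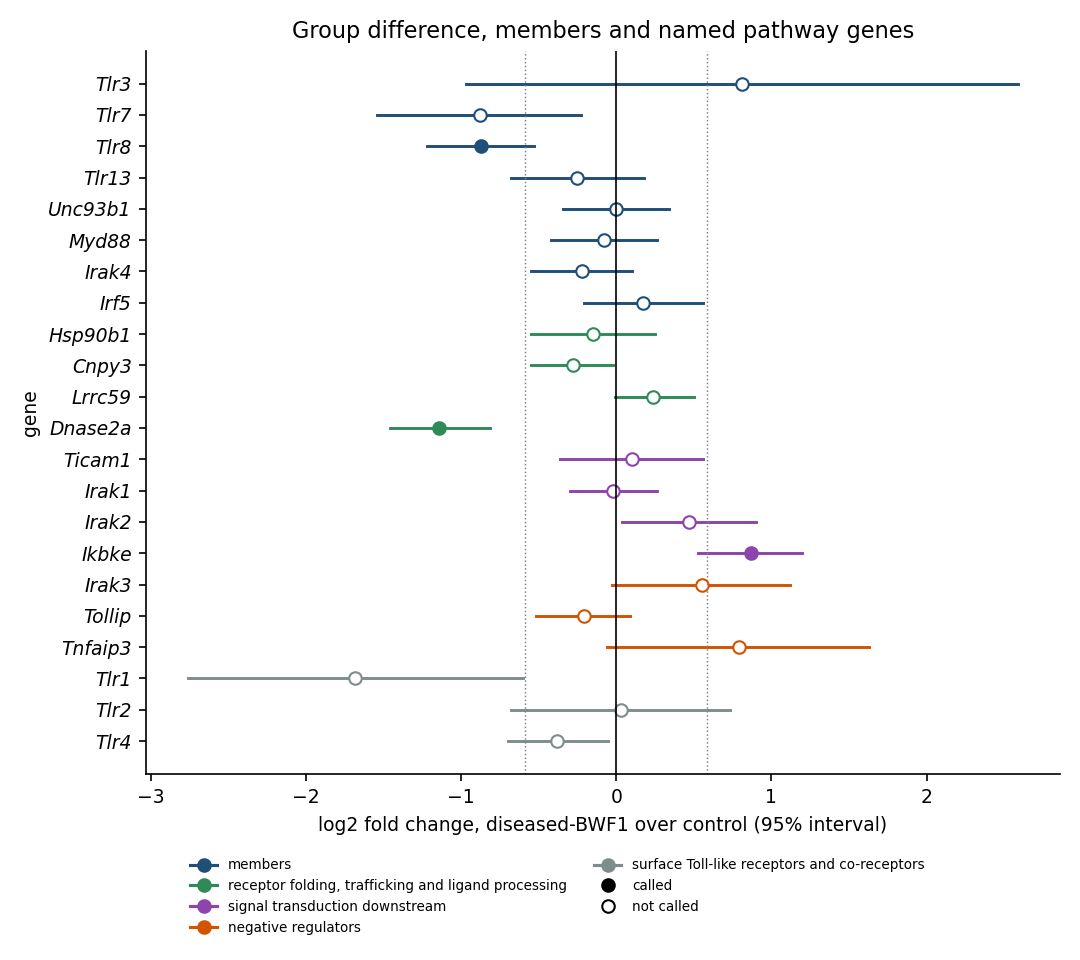
Log2 fold change (diseased-BWF1 over control) of the 8 tested members and of 14 further pathway genes, with 95% intervals from edgeR; dotted lines mark a 1.5-fold change and filled points are called genes. Tlr8 and Dnase2a are the called genes on the lower side and Ikbke the called gene on the higher side.

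Ratios between members within a mouse do not depend on how libraries are scaled. The log2 ratio of Tlr7 to Tlr8 was -0.689, -0.379 and -0.408 in control mice and -0.376, -1.053 and -0.278 in diseased-BWF1 mice. The groups overlapped and the means differed by -0.077 (exact two-sided permutation p = 1), so no unequal change of these neighbours was detected. The sign of that difference turned to 0.16 without diseased-BWF1 replicate 2. Ratios to Tlr9 were not computed, because it had too few counts, and 4 other ratios were chosen after the values were seen.

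The log2 ratio of Tlr8 to its chaperone Unc93b1 was -0.535, -0.477 and -0.387 in control mice. In the diseased-BWF1 mice it was -1.41, -1.337 and -1.285. The groups were far apart and each was tight, with means of -0.466 ± 0.075 and -1.344 ± 0.063 (SD, n = 3), a difference of -0.878. The ratio of Tlr7 to Unc93b1 was -0.958 ± 0.232 in control and -1.913 ± 0.428 in diseased-BWF1 mice, and that of Tlr7 to Tlr13 was -0.654 ± 0.212 and -1.35 ± 0.408, without overlap in either case. The ratio of Tlr13 to Unc93b1 differed by -0.259 and its groups overlapped. The exact permutation p was 0.1 for each of the 3 ratios without overlap, which is the smallest that 3 mice against 3 can give, and 0.2 for the last. Adjusted over the 5 ratios, the exact p values were 0.167 and 0.25, so none passed a threshold of 0.05.

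**Figure D3:**
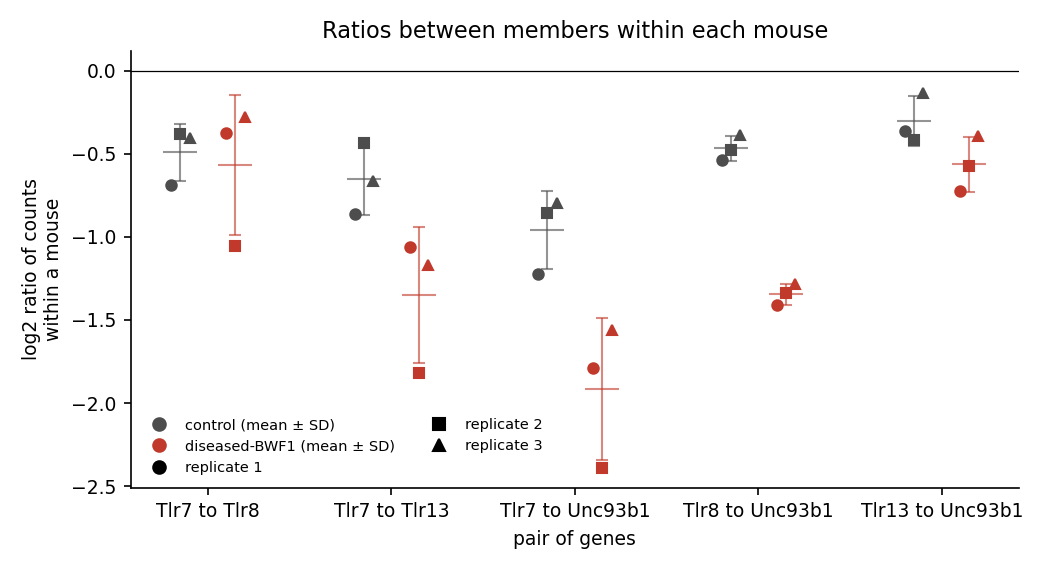
Log2 ratios of the counts of 2 members within each mouse, with group means and SDs (n = 3). The ratios of Tlr7 and Tlr8 to Unc93b1 and of Tlr7 to Tlr13 are lower in all diseased-BWF1 mice, while the ratios of Tlr7 to Tlr8 overlap.

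The counts were deposited per RefSeq transcript record, and the 9 genes had 35 records. The gene-level difference of Tlr8 was spread over several of its 5 records. Its main curated record had 1120, 654 and 317 counts in control mice and 346, 331 and 513 in diseased-BWF1 mice, and a predicted record had 164, 138 and 197 against 0, 0 and 56. Control replicate 3 placed 309 counts on another curated record that held 45 and 48 counts in the other control mice. The division of counts between records varied between mice of a group more than the sum for the gene did.

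The curated Tlr8 records together had 1293, 873 and 900 counts in control mice and 515, 538 and 626 in diseased-BWF1 mice. The groups were separate here too, with a log2 difference of -0.85 (SE 0.14) that edgeR did not call on curated records alone (adjusted p = 0.111), whereas DESeq2 did (log2 difference -0.84, adjusted p = 2.91e-05). For Tlr7 the curated records had 898, 792 and 836 counts against 531, 283 and 528. A Tlr7 record with 135, 139 and 150 counts in control mice had 71, 0 and 0 in diseased-BWF1 mice. The main Tlr7 record had 566, 530 and 442 counts against 243, 210 and 458.

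Tlr3 had 0 counts on its curated record in all mice. Its counts lay on 4 predicted records. One of them had 0, 9 and 0 counts in control mice and 38, 54 and 94 in diseased-BWF1 mice, without overlap, which is at most 30% of the Tlr3 counts of a control mouse and 57.6% to 95.9% of those of a diseased-BWF1 mouse. Another had 51, 1 and 3 against 1, 0 and 0, and another 60, 20 and 0 against 23, 5 and 0. The fourth had 0, 0 and 0 against 4, 7 and 4. Fitted one by one among 20332 records, 21 of the 35 member records could be tested and 0 was called. One of the 21 had an unadjusted edgeR p under 0.05, the first Tlr3 record above, with a log2 difference of 4.28 (SE 1.67) and an edgeR adjusted p of 0.766. In the same fit 13 of the 20332 records were called.

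**Figure D4:**
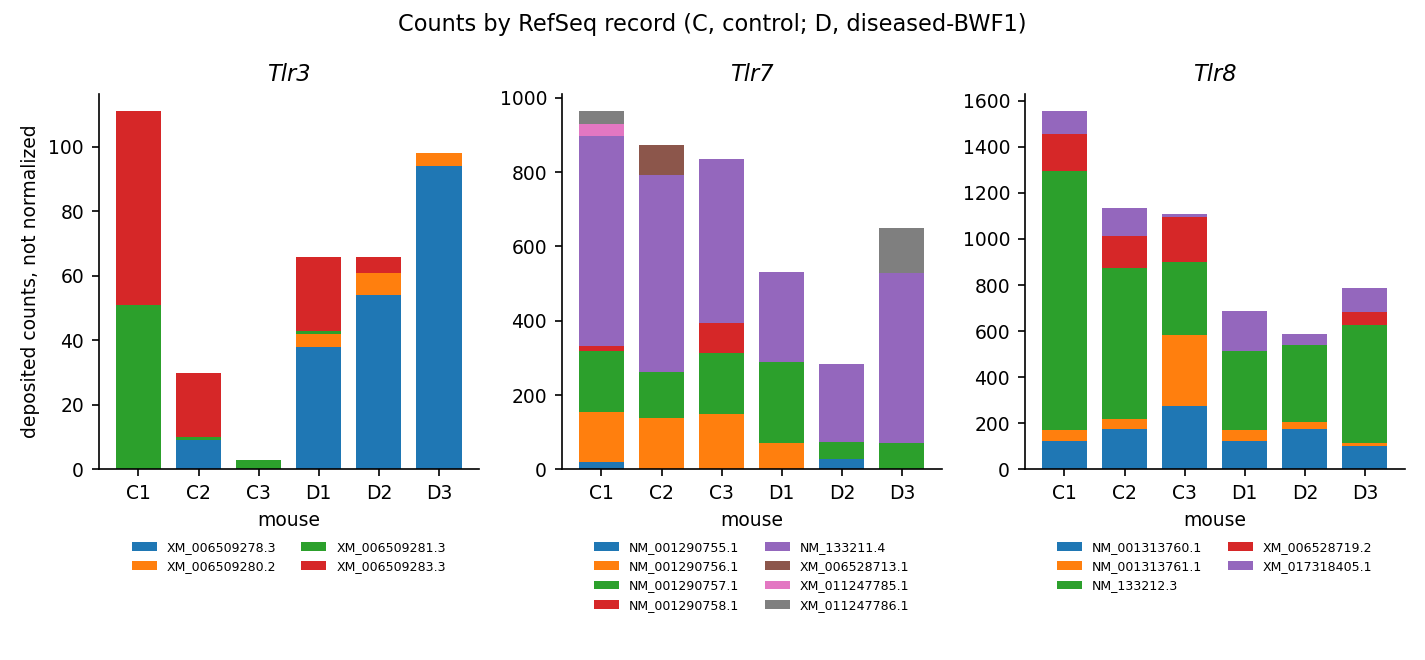
Deposited counts of Tlr3, Tlr7 and Tlr8 in each mouse, stacked by RefSeq record (bars start at 0). The heights for Tlr7 and Tlr8 are lower in all 3 diseased-BWF1 mice, and 1 predicted record holds 57.6% to 95.9% of the Tlr3 counts in the diseased-BWF1 mice.

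Genes around Tlr8 and Tlr7 were examined because these neighbours had differences of the same size. Within 1000000 bases on either side lay 18 genes, of which 8 were tested, 6 besides Tlr7 and Tlr8, and 0 of those 6 was called by edgeR or DESeq2, with 2 at an unadjusted edgeR p under 0.05. Tmsb4x, an actin-binding peptide gene next to Tlr8, had 5712, 5483 and 6375 normalized counts in control mice and 4428, 4189 and 4611 in diseased-BWF1 mice. It had a log2 difference of -0.41 (SE 0.14, adjusted p = 0.249 in edgeR and 0.0454 in DESeq2) without overlap of the groups, and it was not called by DESeq2 because it was below 1.5-fold. Prps2, a nucleotide synthesis gene on the other side, had 86.88, 69.95 and 62.01 normalized counts against 134.1, 163.0 and 108.9, also without overlap but in the opposite direction. Its log2 difference was 0.88 (SE 0.21, edgeR adjusted p = 0.116). The other 4 tested genes, Ofd1, Trappc2, Rab9 and Tceanc, overlapped between groups, with log2 differences of 0.25, -0.16, -0.52 and 0.19.

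**Figure D5:**
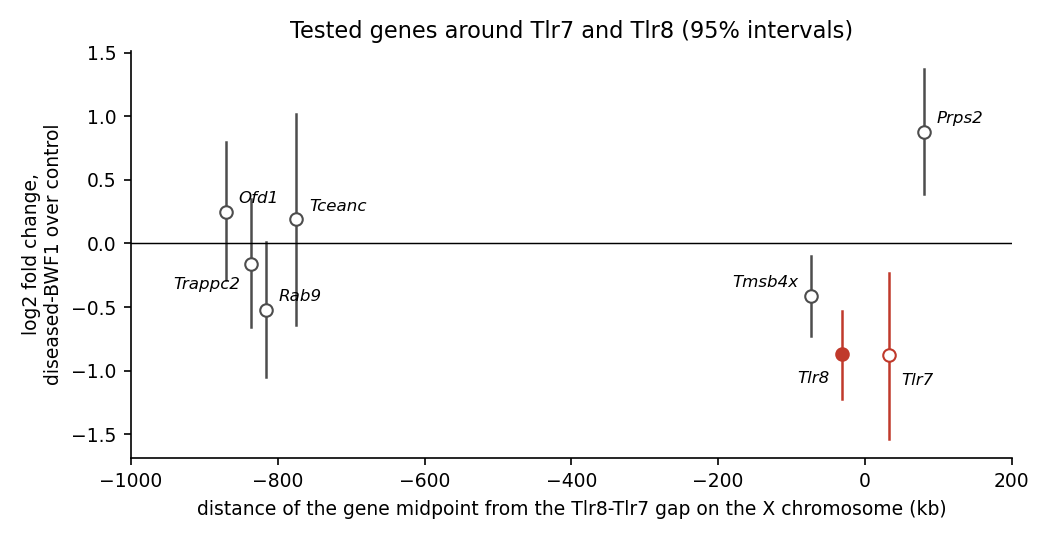
Log2 fold changes with 95% intervals of the 8 tested genes within 1000000 bases of the Tlr8 and Tlr7 genes, against the distance of each gene's midpoint from the gap between them in kb. Tlr8, Tlr7, Tmsb4x, Rab9 and Trappc2 lie below 0 and Prps2, Ofd1 and Tceanc above it.

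The other genes of the pathway were listed by role, 103 in all, of which 102 had a record and 79 were tested. One was called higher and 1 lower (2.53% of the 79, against 1.22% of all tested genes), and 77 were not called. Their median log2 difference was -0.03. DESeq2 called 6 of the 86 pathway genes it tested, where it called 2.97% of the 12405 genes it tested.

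Among the 28 genes for receptor folding, trafficking and ligand processing, 24 were tested, 1 was called lower and 0 higher, with a median log2 difference of -0.14. Among the 24, 7 had an unadjusted edgeR p under 0.05, against 13.2% of all tested genes. The called gene was Dnase2a, the lysosomal nuclease that degrades DNA of engulfed cells. It had 410.4, 493.8 and 540.9 normalized counts in control mice and 212.5, 226.8 and 218.8 in diseased-BWF1 mice. The diseased-BWF1 values were tightly grouped below all control values, 2.20-fold lower on average. The log2 difference was -1.14 (SE 0.14, edgeR adjusted p = 0.0192), and it was called in 13 of 20 fits. Without control replicate 2 or without any 1 of the diseased-BWF1 mice the call was lost, with adjusted p values up to 0.0883.

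The folding partners Hsp90b1 and Cnpy3 had log2 differences of -0.15 (SE 0.17) and -0.28 (SE 0.11), and Lrrc59, which helps receptors leave the endoplasmic reticulum, one of 0.24 (SE 0.11). None passed the edgeR test, with adjusted p values of 0.762, 0.345 and 0.402. In this list the control mice lay above the diseased-BWF1 mice without overlap for 9 of the 24 tested genes and below them for 2, while the shares of all tested genes were 11.2% and 9.58%. Further genes of this list, named here after their values were seen, were called by DESeq2 and not by edgeR with its low-count filter. The protease gene Ctsb had a log2 difference of -0.82 (SE 0.17) with adjusted p values of 0.08 in edgeR and 0.000152 in DESeq2. Lgmn, which encodes the asparagine endopeptidase, had -0.95 (SE 0.21) with 0.0927 and 0.00102. The endolysosomal ribonuclease gene Rnaset2a had -0.74 (SE 0.17) with 0.114 and 0.0064, and it shares 72.2% of its 75-base windows with Rnaset2b, whose log2 difference was 0.58 (SE 0.25), so the division between them is uncertain.

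Of 32 genes for downstream signal transduction, 30 were tested, 1 was called higher and 0 lower, with a median log2 difference of -0.01. Among the 30, 4 had an unadjusted edgeR p under 0.05, against 13.2% of all tested genes. Ikbke, the kinase of the IKK family that acts on interferon regulatory factors, rose. It had 316.9, 299.4 and 283.6 normalized counts in control mice and 621.3, 465.8 and 557.7 in diseased-BWF1 mice. The lowest diseased-BWF1 mouse was above the highest control mouse, and the log2 difference was 0.87 (SE 0.14, edgeR adjusted p = 0.0437). As for Tlr8, leaving out any 1 mouse ended the call, with differences of 0.76 to 0.98 and adjusted p values of 0.0586 to 0.167. Ticam1, the adaptor of Tlr3, had a log2 difference of 0.10 (SE 0.20). The kinases Irak1 and Irak2 had -0.02 (SE 0.12) and 0.47 (SE 0.18), and their edgeR adjusted p values were 0.961 and 0.331.

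Of 19 negative regulators 15 were tested and 0 was called by edgeR or DESeq2, with a median log2 difference of 0.16. Among the 15, 1 had an unadjusted edgeR p under 0.05, against 13.2% of all tested genes. Irak3, an inhibitory member of the Irak family, had 0.55 (SE 0.25), Tollip -0.21 (SE 0.13) and the ubiquitin-editing enzyme gene Tnfaip3 0.79 (SE 0.36). The edgeR adjusted p values were 0.409, 0.541 and 0.414.

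None of the 11 cytokine and interferon genes passed edgeR's low-count filter in these unstimulated PMs. DESeq2 gave log2 differences of 1.18 for Tnf, 2.10 for Il6 and -0.66 for Il1b. Its adjusted p values for these were 0.811, 0.351 and 0.99. Tnf had 4, 5 and 3 counts in control mice and 6, 8 and 13 in diseased-BWF1 mice. Il6 had 6, 7 and 6 against 28, 52 and 2. Ccl2 had 2, 2 and 1 against 10, 1 and 1. Diseased-BWF1 replicates 1 and 2 had the highest Il6 counts, replicate 3 the lowest.

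Of 13 surface receptors and co-receptors 10 were tested and 0 was called by edgeR, with a median log2 difference of -0.15. Among the 10, 3 had an unadjusted edgeR p under 0.05, against 13.2% of all tested genes. Tlr1, which recognises lipopeptides together with Tlr2, had 139.8, 128.6 and 68.9 normalized counts in control mice and 61.38, 22.28 and 21.18 in diseased-BWF1 mice. The groups did not overlap, and the log2 difference of -1.68 (SE 0.46) passed DESeq2 (adjusted p = 0.0237) but not edgeR (adjusted p = 0.17). Tlr1 was called in 1 of 20 fits. On curated records alone its log2 difference was -1.29 with an SE of 1.58 (edgeR adjusted p = 0.849). Tlr1 shares 10.6% of its 75-base windows with Tlr6. Tlr2 had a log2 difference of 0.03 (SE 0.30), which was -0.43 without diseased-BWF1 replicate 1. The endotoxin receptor gene Tlr4 had -0.38 (SE 0.14, edgeR adjusted p = 0.299).

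Markers of other cells were compared between groups because some of these cells also express Tlr7 and Tlr8. For plasmacytoid dendritic cells, which are known for high Tlr7 and Tlr9, the summed level of 6 markers was 179 to 236 CPM in control and 150 to 151 CPM in diseased-BWF1 mice. Nearly all of it came from Bst2 and Tcf4, while Siglech had 0 to 3 counts per mouse. For conventional dendritic cells the summed level of 6 markers was 44.3 to 82.9 CPM in control and 9.33 to 18.1 CPM in diseased-BWF1 mice. The difference in the sum came from Cd209a, which was called lower, with 162, 207 and 244 counts in control mice and 8, 18 and 5 in diseased-BWF1 mice. The other tested marker, Zbtb46, had 36, 30 and 19 counts against 47, 43 and 22 (log2 difference 0.41, SE 0.33, edgeR adjusted p = 0.653). Xcr1 had 3 to 6 counts per mouse, Flt3 1 to 12, and Ccr7 was at 0 in all mice. The part of these levels in the differences of Tlr8 and Tlr7 was not tested.

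B cell markers, of which 0 of 8 could be tested, summed to 5.25 to 7.6 CPM in control and 2.93 to 5.9 CPM in diseased-BWF1 mice. The other lists were small or did not separate the groups. Neutrophil markers summed to at most 5.03 CPM with Ly6g and Retnlg at 0, T and NK cell markers to at most 2.82 CPM, mast cell and eosinophil markers to at most 0.592 CPM, mesothelial markers to at most 0.652 CPM and erythroid markers to at most 1.07 CPM. The plasma cell markers, nearly all from Xbp1, summed to 185 to 348 CPM in control and 274 to 307 CPM in diseased-BWF1 mice. Among the macrophage markers Cd68, an endolysosomal glycoprotein, had 2021, 2103 and 2694 normalized counts in control mice and 1245, 1160 and 789.7 in diseased-BWF1 mice. These did not overlap, with a log2 difference of -1.10 (SE 0.22) that passed DESeq2 (adjusted p = 0.00013) but not edgeR (adjusted p = 0.0718).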

How the data were processed

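The authors sorted PMs, extracted RNA with TRIzol and made stranded mRNA libraries. They deposited counts per RefSeq record, 1 file per mouse, as whole numbers without normalization. The submitters' processing notes name Salmon 0.8.0, DESeq2 and GRCm38.p6 without their roles, so the counts may be rounded estimates, and how reads shared between records were divided is not given in the sources used here.

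Of 107193 records, 86458 matched 32875 genes of a RefSeq table (45749 with the same version) and were summed per symbol, and 20735 were left out. edgeR 4.0.16 in R 4.3.3 compared groups with filterByExpr, TMM factors and quasi-likelihood tests, with a common dispersion of 0.0543. SE is the log2 difference divided by the root of F. DESeq2 1.42.0 gave normalized counts (size factors 0.871 to 1.21) and, with limma 3.58.1 and the other settings described at the end, alternatives. No covariate was used. The code was tested on simulated data.

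The members and lists were chosen with earlier results of these data known. Genes named are the members and, from each list, the called genes and the first 3 as written. Further genes, chosen after their values were seen, are marker genes, the genes near Tlr8, Ctsb, Lgmn, Rnaset2a and Rnaset2b. Mice of a group are separate animals. Some marker results are not reported here.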

Additional observations from a re-analysis of the deposited data

How the results depend on the processing

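Counting calls, 1 member was lower in the main comparison. The count was 0 with library totals only, the replicate block, age as a covariate, curated records only or a test against a fold change of 1.5, 2 with DESeq2 on curated records (chosen after the data were seen) and 0 with any single mouse left out. The count of members called higher was 0 in all settings. Pathway genes called lower numbered 1, and 5 with DESeq2 (with all or with curated records), 2 with no low-count filter, 0 with the replicate block, curated records or the test against 1.5-fold, and 0 to 1 with a mouse left out. Pathway genes called higher numbered 1, and 0 with limma-voom, the replicate block, age, curated records, the 1.5-fold test or any mouse left out. The cause of these differences was not tested.

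Same-numbered mice had correlations of their deviations of 0.118, 0.006 and 0.157, and differently numbered mice had -0.144 to 0.057. Control replicate 2 correlated more with diseased-BWF1 replicate 1 (0.057) than with its own number. These few weak values cannot decide whether same-numbered mice share a batch. With the replicate block Tlr8 had a log2 difference of -0.88 (adjusted p = 0.0837), Dnase2a -1.13 (0.0564) and Ikbke 0.86 (0.0903).

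Differences near 0 changed sign. Unc93b1 was -0.0035 with limma-voom, -0.0064 with upper-quartile factors, -0.02 with no filter, -0.0011 with at least 10 counts in every library, -0.0048 with the replicate block, -0.0041 with age, and -0.09 to 0.09 with a mouse left out. Irak1 was 0.02 with library totals and -0.09 to 0.03 with a mouse left out. Tlr2 was -0.07 with limma-voom, -0.06 with the replicate block, -0.0029 with age, -0.02 on curated records with either tool, and -0.43 to 0.22 with a mouse left out. Leaving out a mouse also gave Myd88 -0.18 to 0.01, Hsp90b1 -0.25 to 0.02 and Ticam1 -0.07 to 0.23. The ratio of Tlr7 to Tlr8 was -0.22 to 0.16. The other 4 ratios kept their direction. Tlr9 and the 11 cytokine genes had too few counts to pass edgeR's low-count filter.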
